A study of Mus musculus with 24 samples.

Results

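The tetraspanins described here are 10 mouse genes, Tspan3, Tspan4, Tspan14, Cd9, Cd63, Cd81, Cd82, Cd37, Cd53 and Cd151. They were taken by symbol from the 52636 gene models of each library, and all 10 were found. The genes were chosen by symbol with their counts and RPKM values in all 4 groups already in view, so their values, and the calls given for them from the fit of all genes, are a description and no independent evidence. No threshold was used in the choice. Expression was measured by RNA sequencing of bone marrow-derived macrophages, primary phagocytes grown in culture from marrow precursors. Each of 4 groups holds 6 libraries: Ninj1KO_Pam3 and WT_Pam3, which were stimulated with Pam3, and Ninj1KO_NoPrime and WT_NoPrime, which were kept in media with no treatment. WT cells came from C57BL/6 mice and Ninj1 KO cells from mice with a knockout of Ninj1, the gene of a membrane protein that ruptures the plasma membrane in lytic cell death. Pam3 is the laboratory name of a synthetic lipopeptide that is sensed by TLR2 together with TLR1. The strain background, age and deleted part of the knockout, the dose and duration of Pam3, and whether libraries of a group came from separate mice were not stated in the sources at hand, so the spread between libraries may be technical.

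Tetraspanins are small membrane proteins that cross the membrane repeatedly and gather other membrane proteins, such as integrins, immunoglobulin-type receptors and proteases, into tetraspanin-enriched microdomains. They have few ligands of their own and act mostly on the sorting, clustering and stability of these partners at the cell surface, in endosomes and in released vesicles. In macrophages they are known for roles in adhesion, phagosome maturation, cell fusion and the surface level of pattern recognition receptors.

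Each library held 31302011 to 40663152 counted reads. Counts of the 10 genes ran from 858, for Cd151 in WT_Pam3 replicate 3, to 37827, for Cd53 in WT_NoPrime replicate 4. The 60 pairs of libraries within a group differed by more than sampling noise, with a chi-square of at least 2.54 per degree of freedom. WT_Pam3 replicate 5 stood apart from the other 5 libraries of its group at 117 to 143 per degree of freedom, against at most 16.3 in the other pairs, and results that rest on it are given with and without it. Levels in CPM are counts scaled to a common library size, with sizes adjusted by TMM, and are not divided by gene length. Ninj1 was at 409 to 479 CPM in Ninj1KO_Pam3, 646 to 1145 CPM in WT_Pam3, 151 to 179 CPM in Ninj1KO_NoPrime and 289 to 325 CPM in WT_NoPrime (edgeR log2 fold change -0.92 after Pam3 and -0.88 in media), and the knockout and WT ranges did not overlap in either treatment. Reads from Ninj1 thus remained in the knockout libraries, and whether they come from outside the deleted part is not known here. WT libraries carry a male label and knockout libraries no sex label, but Xist stood at 233 to 796 CPM in all 24 and the 4 Y-linked genes Kdm5d, Eif2s3y, Uty and Ddx3y had 28 counts in all. All 8 macrophage markers were present, with a summed level of 25888 to 37975 CPM over the 24 libraries.

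Gene models are given on GRCm38 as in GENCODE M21, and all 10 are protein-coding. Tspan3 (ENSMUSG00000032324) lies at chr9:56131725-56165477 on the minus strand, and Cd82 (ENSMUSG00000027215) lies at chr2:93419111-93463140 on the minus strand. Cd53 (ENSMUSG00000040747) lies at chr3:106759921-106790149 on the minus strand, and Cd37 (ENSMUSG00000030798) lies at chr7:45233632-45239115 on the minus strand. Cd63 (ENSMUSG00000025351) lies at chr10:128900989-128912822 on the plus strand, and Cd9 (ENSMUSG00000030342) lies at chr6:125460266-125494791 on the minus strand. Cd81 (ENSMUSG00000037706) lies at chr7:143052739-143067934 on the plus strand, and Cd151 (ENSMUSG00000025510) lies at chr7:141467392-141471473 on the plus strand. Tspan4 (ENSMUSG00000025511) lies at chr7:141475240-141493427 on the plus strand, and Tspan14 (ENSMUSG00000037824) lies at chr14:40906445-40966807 on the minus strand.

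Sequences upstream of the start sites are shown for 3 genes that answered Pam3 differently, Tspan3 with the largest rise of the 10, Tspan14 with a fall and Cd53 with little change. They are the 250 bases before the start site on the gene's own strand, from RefSeq on GRCm38.p6, and hold no annotated exon. The RefSeq start of Tspan3 lies inside its longer GENCODE M21 model. The Tspan3 window is chr9:56161071-56161320, the Tspan14 window is chr14:40966897-40967146 and the Cd53 window is chr3:106790150-106790399, all on the minus strand. Capitals mark CG dinucleotides.
Tspan3: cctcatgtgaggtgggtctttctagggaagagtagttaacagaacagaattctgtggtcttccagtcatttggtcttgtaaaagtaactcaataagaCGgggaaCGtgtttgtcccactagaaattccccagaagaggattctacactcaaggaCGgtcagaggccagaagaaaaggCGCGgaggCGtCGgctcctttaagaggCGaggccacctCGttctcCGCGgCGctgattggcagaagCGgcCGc
Tspan14: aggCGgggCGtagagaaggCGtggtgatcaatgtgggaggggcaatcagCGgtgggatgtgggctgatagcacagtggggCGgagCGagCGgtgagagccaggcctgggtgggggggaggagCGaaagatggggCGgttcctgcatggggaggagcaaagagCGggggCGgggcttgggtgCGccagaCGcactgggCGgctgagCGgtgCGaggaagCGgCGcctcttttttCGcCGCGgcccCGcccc
Cd53: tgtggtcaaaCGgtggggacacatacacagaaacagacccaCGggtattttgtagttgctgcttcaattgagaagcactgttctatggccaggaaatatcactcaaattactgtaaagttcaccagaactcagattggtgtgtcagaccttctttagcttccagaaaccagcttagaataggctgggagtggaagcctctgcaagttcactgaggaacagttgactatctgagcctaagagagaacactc
The Tspan3 window held 14 CG dinucleotides, the printed Tspan14 window 22 and the Cd53 window 2. A second Tspan14 window, chr14:40948210-40948459, which is not printed, held 2. RefSeq gave 16 windows for the 10 genes, with a median of 11.5 CG dinucleotides and a range of 2 to 24, and the median of all 32851 mouse windows was 6 (quartiles 2 and 16). A set of 5 motifs was searched on both strands, and 4 of the 16 windows held a match. The kappa B motif (3 G, any 2 bases, 3 T, 2 C) was found upstream of Cd9, and 1.41% of all windows hold it. The E-box CACGTG, held by 6.02% of all windows, was found in a window of Cd37 and in a window of Tspan4. The PU.1 motif GAGGAAGT, held by 2.44%, was found in windows of Cd37 and Cd82. Neither the AP-1 motif TGANTCA nor the interferon-stimulated response element (GAAA, any 2 bases, GAAA) was found in any of the 16 windows, against 6.75% and 2.98% of all windows. A match describes letters only, and the 3 printed windows held none of the 5 motifs.

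To compare genes with each other, the deposited RPKM was used, which is divided by gene length and adjusted by a size factor (called nRPKM here). After Pam3, Tspan3 had the highest nRPKM of the 10 genes, at 396 ± 4.97 in Ninj1KO_Pam3 and 429 ± 9.88 in WT_Pam3 (SD, n = 6). Cd53 came next at 373 ± 15.9 nRPKM in Ninj1KO_Pam3 and 372 ± 44.5 in WT_Pam3, followed by Cd63 at 191 ± 11.3 in Ninj1KO_Pam3 and 225 ± 48.6 in WT_Pam3. Cd82 and Cd9 followed with ranges that overlapped, then Cd37, Tspan4, Cd81 with Tspan14, and Cd151. Cd151 was the lowest at 15.8 ± 0.79 nRPKM in Ninj1KO_Pam3 and 16 ± 1.18 in WT_Pam3. In WT_Pam3 the ranges of Cd53 and Cd63, and those of Cd37 and Tspan4, overlapped as well, but only through replicate 5. In the other 5 libraries Cd53 had 384 to 400 nRPKM and Cd63 202 to 208 (mean 205 ± 2.78). Cd37 had 35.9 to 39.9 nRPKM in them and Tspan4 30.9 to 34.9.

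In media the order was different. Cd53 led at 340 ± 12.9 nRPKM in Ninj1KO_NoPrime and 367 ± 25 in WT_NoPrime, and Cd63 followed at 189 ± 8.87 in Ninj1KO_NoPrime and 194 ± 7.05 in WT_NoPrime. Cd9, Tspan4, Cd37 and Tspan14 came next, in that order in both genotypes, with ranges of Cd37 and Tspan14 that overlapped in WT_NoPrime. Tspan3, at 31.3 ± 0.842 nRPKM in Ninj1KO_NoPrime and 34 ± 0.823 in WT_NoPrime, overlapped Cd81, and Cd81 overlapped Cd151. Cd82 was the lowest of the 10 in media, at 27.7 ± 0.425 nRPKM in Ninj1KO_NoPrime and 27 ± 0.662 in WT_NoPrime. Tspan3 therefore stood seventh in media and first after Pam3, and Cd82 moved up from the last place.

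**Figure D1:**
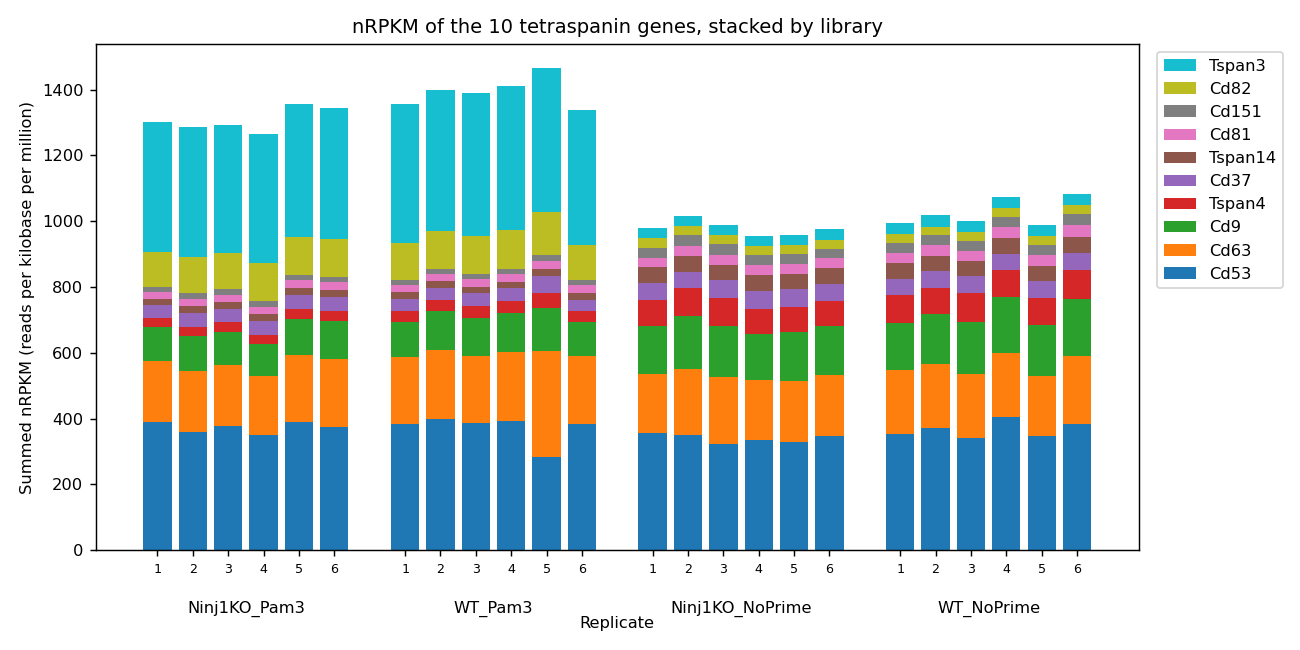
Deposited nRPKM (RPKM adjusted by a size factor) of the 10 genes, stacked for each of the 24 libraries. Tspan3, at the top of each bar, is a thin layer in media and the thickest layer in all 12 Pam3 libraries, and WT_Pam3 replicate 5 has less Cd53 and more Cd63 than the other libraries.

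The nRPKM of the 10 genes summed to 1308 ± 34.8 in Ninj1KO_Pam3 and 1393 ± 43.9 in WT_Pam3, against 979.2 ± 22.8 in Ninj1KO_NoPrime and 1027 ± 41.6 in WT_NoPrime (SD, n = 6). Tspan3 supplied 30.3% ± 0.515 of that sum in Ninj1KO_Pam3 and 30.8% ± 0.531 in WT_Pam3, against 3.2% ± 0.0493 in Ninj1KO_NoPrime and 3.31% ± 0.133 in WT_NoPrime. Cd82 supplied 8.63% in Ninj1KO_Pam3 and 8.29% in WT_Pam3, against 2.83% in Ninj1KO_NoPrime and 2.63% in WT_NoPrime. Cd9 supplied 8.05% in Ninj1KO_Pam3 and 8.37% in WT_Pam3, against 15.3% in Ninj1KO_NoPrime and 15.5% in WT_NoPrime. Tspan4 supplied 2.22% in Ninj1KO_Pam3 and 2.53% in WT_Pam3, against 8.14% in Ninj1KO_NoPrime and 8.12% in WT_NoPrime. The stacked plot of nRPKM by library shows this exchange in every library. As a share of all counted reads, with no division by length and no size factor, the 10 genes took 0.216% ± 0.00299 in Ninj1KO_Pam3 and 0.221% ± 0.00622 in WT_Pam3, against 0.228% ± 0.00426 in Ninj1KO_NoPrime and 0.235% ± 0.00575 in WT_NoPrime. The mean total was thus higher after Pam3 in nRPKM and lower as a share of reads, so its direction depends on the scaling. In bulk RNA, fewer cells of a type and less RNA per cell cannot be told apart.

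Pam3 raised Tspan3 and Cd82 in both genotypes and lowered 6 of the other 8 genes, with the deepest falls in Tspan4, Tspan14 and Cd151. A gene was called where edgeR's quasi-likelihood test gave a Benjamini-Hochberg adjusted p under 0.05 over all 14435 genes tested, and the verbs rose and fell are kept for called genes. In Ninj1 KO cells 2 of the 10 genes were called higher and 6 lower, where 85.0% of all genes tested were called, 40.2% higher and 44.8% lower. In WT cells 3 were called higher and 6 lower, where 84.8% of all genes were called, 40.6% higher and 44.2% lower. The median log2 fold change of the 10 genes was -0.43 in Ninj1 KO cells and -0.40 in WT cells, beside -0.07 and -0.05 over all genes tested. In Ninj1 KO cells the groups of 6 did not overlap for 2 genes on the higher and 6 on the lower side, where 75.7% of all genes tested did not overlap, 36.0% higher and 39.7% lower. In WT cells they did not overlap for 2 on the higher and 5 on the lower side, where 68.8% of all genes did not, 32.5% higher and 36.4% lower. These libraries took part in the choice of the list, and nothing is read from the counts.

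**Figure D2:**
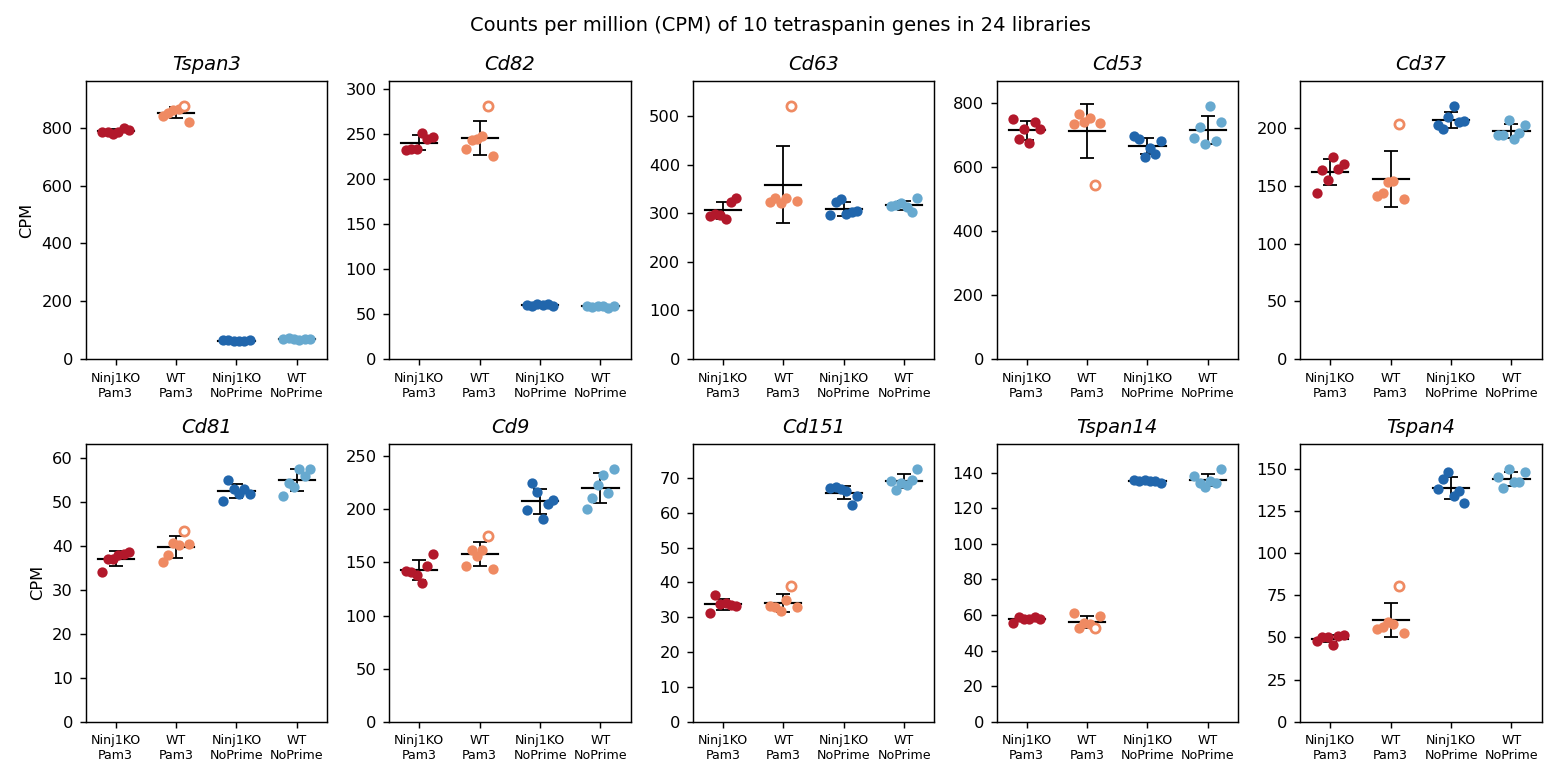
CPM of each gene in the 24 libraries, 1 panel per gene with its own linear axis from 0, a point per library, and mean and SD as bars. Tspan3 and Cd82 are high in all Pam3 libraries, Tspan4, Tspan14 and Cd151 are low in them, and the open circle, WT_Pam3 replicate 5, lies far from its group for Cd63, Cd53, Cd37 and Tspan4.

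Tspan3 is a broadly expressed tetraspanin that was found with claudin-11 and an integrin in oligodendrocytes. Levels that follow are in CPM, and a run of 3 values gives the lowest, the median and the highest of 6 libraries. Tspan3 in Ninj1 KO cells had 778, 786 and 801 CPM after Pam3, against 60.7, 64.1 and 66 CPM in media. Tspan3 in WT cells had 819, 857 and 875 CPM after Pam3, against 67.5, 68.8 and 71.3 CPM in media. Every Pam3 library lay far above every media library, and within each treatment every knockout library lay below every WT library. The log2 fold change was 3.63 in both genotypes (SE 0.0313), a 12.4-fold rise.

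Cd82, also known as KAI1, restrains cell migration and is recruited to phagosomes in macrophages. Cd82 in Ninj1 KO cells had 232, 239 and 251 CPM after Pam3, against 58.9, 60.5 and 61 CPM in media. Cd82 in WT cells had 226, 245 and 281 CPM after Pam3, against 56.4, 59.1 and 59.5 CPM in media. The Pam3 and media libraries were well apart, and the genotypes overlapped in both treatments. It rose by 2.0 (SE 0.0414) on the log2 scale in Ninj1 KO cells, which is 3.99-fold, and by 2.07 (SE 0.0415) in WT cells, which is 4.21-fold.

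Cd53 and Cd37 are the leukocyte-restricted members. CD37 binds the fungal receptor Dectin-1. Cd53 in Ninj1 KO cells had 675, 720 and 750 CPM after Pam3, against 633, 671 and 697 CPM in media. Cd53 in WT cells had 545, 741 and 766 CPM after Pam3, against 672, 710 and 791 CPM in media. All 4 groups overlapped, and the 545 CPM was WT_Pam3 replicate 5, with the other 5 at 736 to 766. The log2 fold changes of 0.10 (SE 0.0601) in Ninj1 KO cells and -0.01 (SE 0.0601) in WT cells were not called. Without WT_Pam3 replicate 5 they were 0.11, then called, and 0.06. With library sizes not adjusted by TMM, Cd53 was called lower in both genotypes, at -0.38 in Ninj1 KO cells and -0.53 in WT cells, under a scaling that moved the median of all genes to -0.56 and -0.58.

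Cd37 in Ninj1 KO cells had 144, 165 and 175 CPM after Pam3, against 199, 205 and 219 CPM in media. Cd37 in WT cells had 139, 149 and 204 CPM after Pam3, against 191, 195 and 207 CPM in media. The knockout groups were apart, while in WT cells replicate 5 of the Pam3 group, at 204 CPM, reached the media range. Cd37 fell by 0.35 (SE 0.0665) on the log2 scale in Ninj1 KO cells and by 0.34 (SE 0.0666) in WT cells, where the value without replicate 5 was -0.43.

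Cd63 is the tetraspanin of late endosomes, lysosomes and exosomes. Cd63 in Ninj1 KO cells had 289, 298 and 332 CPM after Pam3, against 296, 303 and 330 CPM in media. Cd63 in WT cells had 322, 329 and 520 CPM after Pam3, against 303, 315 and 332 CPM in media. The groups overlapped throughout, and 1 library, WT_Pam3 replicate 5 at 520 CPM, stood above the other 5 at 322 to 331. The log2 fold change was -0.02 (SE 0.0822) in Ninj1 KO cells, not called, and 0.18 (SE 0.0822) in WT cells, called higher. Without replicate 5 the WT value was 0.05 and not called. The WT call held in 12 of the 24 fits that left out 1 library, and was lost without any single media library except WT_NoPrime replicate 6. With library sizes not adjusted, Cd63 was called lower, at -0.50 in Ninj1 KO cells and -0.34 in WT cells.

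Cd9 and Cd81 are close relatives that bind immunoglobulin-type partners and restrain the fusion of macrophages into giant cells in mice. Cd9 in Ninj1 KO cells had 131, 141 and 158 CPM after Pam3, against 191, 207 and 225 CPM in media. Cd9 in WT cells had 144, 159 and 175 CPM after Pam3, against 200, 219 and 238 CPM in media. Pam3 and media libraries did not overlap, and the genotypes did. Cd9 fell by 0.54 (SE 0.0531) on the log2 scale in Ninj1 KO cells and by 0.48 (SE 0.053) in WT cells. The processed pseudogene Cd9-ps had 14.7 ± 1.34 CPM in Ninj1KO_Pam3, 16.2 ± 0.835 in WT_Pam3, 21.4 ± 1.22 in Ninj1KO_NoPrime and 22.6 ± 1.66 in WT_NoPrime (SD, n = 6), and the reads of the pair may be split, so Cd9 is uncertain to that extent.

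Cd81 in Ninj1 KO cells had 34.1, 37.5 and 38.7 CPM after Pam3, against 50.4, 52.5 and 55.1 CPM in media. Cd81 in WT cells had 36.3, 40.4 and 43.5 CPM after Pam3, against 51.5, 55.1 and 57.6 CPM in media. Again the treatments were apart and the genotypes overlapped. Cd81 fell by 0.50 (SE 0.0422) in Ninj1 KO cells and by 0.47 (SE 0.0421) in WT cells on the log2 scale.

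Cd151 is the partner of laminin-binding integrins. Cd151 in Ninj1 KO cells had 31.3, 33.7 and 36.5 CPM after Pam3, against 62.3, 66.7 and 67.4 CPM in media. Cd151 in WT cells had 31.8, 33.2 and 39.1 CPM after Pam3, against 66.5, 68.9 and 72.6 CPM in media. The Pam3 libraries of both genotypes lay well below the media libraries. Cd151 was 1.95-fold lower after Pam3 in Ninj1 KO cells (log2 -0.97, SE 0.0435) and 2.02-fold lower in WT cells (log2 -1.01, SE 0.0436).

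Tspan4 is the tetraspanin of migrasomes, the vesicles that migrating cells leave on retraction fibres. Its gene lies 3.77 kb from Cd151 on chromosome 7. Tspan4 in Ninj1 KO cells had 45.5, 50.2 and 51.5 CPM after Pam3, against 130, 137 and 148 CPM in media. Tspan4 in WT cells had 52.7, 57.1 and 80.6 CPM after Pam3, against 139, 144 and 150 CPM in media. The treatments were apart in both genotypes, and after Pam3 every knockout library lay below every WT library. Tspan4 fell by 1.49 (SE 0.0693) on the log2 scale in Ninj1 KO cells, 2.81-fold lower, and by 1.26 (SE 0.0687) in WT cells, 2.4-fold lower. Without WT_Pam3 replicate 5, the library at 80.6 CPM, the WT value was -1.36. Tspan4 overlaps Chid1 on the other strand, and the library kit does not keep strand, so reads of the pair cannot be told apart in the shared stretch.

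Tspan14 belongs to the TspanC8 group, which carries the protease ADAM10 out of the endoplasmic reticulum and to the cell surface. Tspan14 in Ninj1 KO cells had 55.6, 57.8 and 58.8 CPM after Pam3, against 134, 135 and 136 CPM in media. Tspan14 in WT cells had 52.8, 55 and 61 CPM after Pam3, against 132, 134 and 142 CPM in media. The spread within each group was narrow beside the gap between treatments, and the genotypes overlapped. Tspan14 was 2.34-fold lower after Pam3 in Ninj1 KO cells (log2 -1.23, SE 0.035) and 2.42-fold lower in WT cells (log2 -1.28, SE 0.0351).

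Markers of other cell types moved with Pam3 too. The 6 megakaryocyte and platelet markers, all with counts, summed to 97.2 to 119 CPM in Ninj1KO_Pam3 and 110 to 199 in WT_Pam3, against 43.6 to 52.9 in Ninj1KO_NoPrime and 48.7 to 55.1 in WT_NoPrime. The 10 stromal and endothelial markers, all with counts, summed to 187 to 235 CPM in Ninj1KO_Pam3 and 133 to 199 in WT_Pam3, against 63.2 to 106 in Ninj1KO_NoPrime and 50.2 to 59.6 in WT_NoPrime. Single markers of this list went both ways. Of 9 tested, 3 rose and 3 fell in Ninj1 KO cells (median log2 fold change -0.21), where 85.0% of all genes were called. In WT cells 3 rose and 1 fell (median 0.02), where 84.8% of all genes were called. The 11 granulocyte markers summed to 54.9 to 62.9 CPM in Ninj1KO_Pam3 and 45.1 to 67 in WT_Pam3, against 93.3 to 108 in Ninj1KO_NoPrime and 72.2 to 83.9 in WT_NoPrime, and only Ly6g in WT_Pam3 was at 0. The lists for dendritic cells, lymphocytes and mast cells summed to 3.91 to 15.1 CPM over all 24 libraries. Their part in the values of the 10 genes was not tested.

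Between genotypes the 10 genes differed little. After Pam3, Tspan3 and Tspan4 were lower in Ninj1KO_Pam3 than in WT_Pam3, and none of the 10 was called higher, where 4.06% of all genes tested were called, 1.31% higher and 2.75% lower. The same pair, and no gene on the higher side, was without overlap between groups, where 2.53% of all genes were, 0.894% higher and 1.63% lower. DESeq2 and limma each called 2 of the 10 lower and 0 higher, where DESeq2 called 3.15% of 27541 genes and limma 4.71% of 14435. Of the 10, 5 had an unadjusted p under 0.05 in edgeR, all on the lower side. The share of all genes with an unadjusted p under 0.05 is not given here. Nothing is therefore read from this count or from the other unadjusted counts below. Tspan3 averaged 788 ± 7.89 CPM in Ninj1KO_Pam3 and 853 ± 19.9 in WT_Pam3 (SD, n = 6), a log2 fold change of -0.11 (SE 0.0281). Tspan4 averaged 49.4 ± 2.24 CPM in Ninj1KO_Pam3 and 60.2 ± 10.3 in WT_Pam3, a log2 fold change of -0.29 (SE 0.0691) that was -0.19 without WT_Pam3 replicate 5 and still called. In a fit of these groups alone neither was called. The Tspan3 call held in 11 of the 24 fits that left out 1 library, and was lost without Ninj1KO_Pam3 replicate 3 and without any single media library. The 8 macrophage markers summed to 31510 to 33132 CPM in Ninj1KO_Pam3 and 33409 to 37975 in WT_Pam3, without overlap. Singly they went both ways, with 1 called higher in the knockout, 2 lower and 5 not called (median log2 fold change -0.04). The part of these markers in the Tspan3 and Tspan4 differences was not tested.

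Among the other 8 genes after Pam3, Cd63 had the widest difference, at 306 ± 17.4 CPM in Ninj1KO_Pam3 and 359 ± 78.9 in WT_Pam3 (log2 -0.23, SE 0.0823), not called. Without replicate 5 of WT_Pam3 that difference was -0.09. Cd9, at 143 ± 9.14 CPM in Ninj1KO_Pam3 and 158 ± 11.3 in WT_Pam3, and Cd81, at 37.2 ± 1.63 CPM in Ninj1KO_Pam3 and 39.9 ± 2.5 in WT_Pam3, gave log2 fold changes of -0.15 and -0.10 and were not called. Cd37, at 162 ± 11 CPM in Ninj1KO_Pam3 and 156 ± 24.6 in WT_Pam3 (log2 0.06), became called higher when replicate 5 was left out, at 0.15. In that fit, 3 of the 10 genes were called, where 8.09% of all genes were called.

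In media, Tspan3 alone was called, lower in Ninj1KO_NoPrime, where 3.03% of all genes tested were called, 1.92% higher and 1.12% lower. DESeq2 and limma also called 1 lower and 0 higher, where DESeq2 called 2.37% of 27541 genes and limma 3.03% of 14435. Of the 10, 1 had an unadjusted p under 0.05 in edgeR, a count with no all-gene share beside it. Tspan3 averaged 63.8 ± 1.76 CPM in Ninj1KO_NoPrime and 69 ± 1.48 in WT_NoPrime (SD, n = 6), a log2 fold change of -0.11 (SE 0.0287). The groups did not overlap, as for 4.27% of all genes, 2.16% higher and 2.11% lower. The call held in 18 of 24 fits without 1 library, and was lost without replicates 4, 5 or 6 of Ninj1KO_NoPrime or 2, 5 or 6 of WT_NoPrime. The log2 fold changes of the other 9 genes ran from -0.11 for Cd53 to 0.07 for Cd37. Cd53 averaged 667 ± 26 CPM in Ninj1KO_NoPrime and 718 ± 44.2 in WT_NoPrime. The median over the 10 genes was -0.07 after Pam3 and -0.06 in media, beside -0.01 and -0.00 over all genes. Marker sums of other cell types differed between the media groups as well, with the granulocyte list at 93.3 to 108 CPM in Ninj1KO_NoPrime and 72.2 to 83.9 in WT_NoPrime and the stromal list at 63.2 to 106 CPM in Ninj1KO_NoPrime and 50.2 to 59.6 in WT_NoPrime. Singly, 4 of 10 granulocyte markers tested were called higher in the knockout and 0 lower. Of 9 stromal and endothelial markers tested, 6 were called higher and 0 lower, where 1.92% of all genes were called higher. The part of these markers in the Tspan3 difference was not tested.

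**Figure D3:**
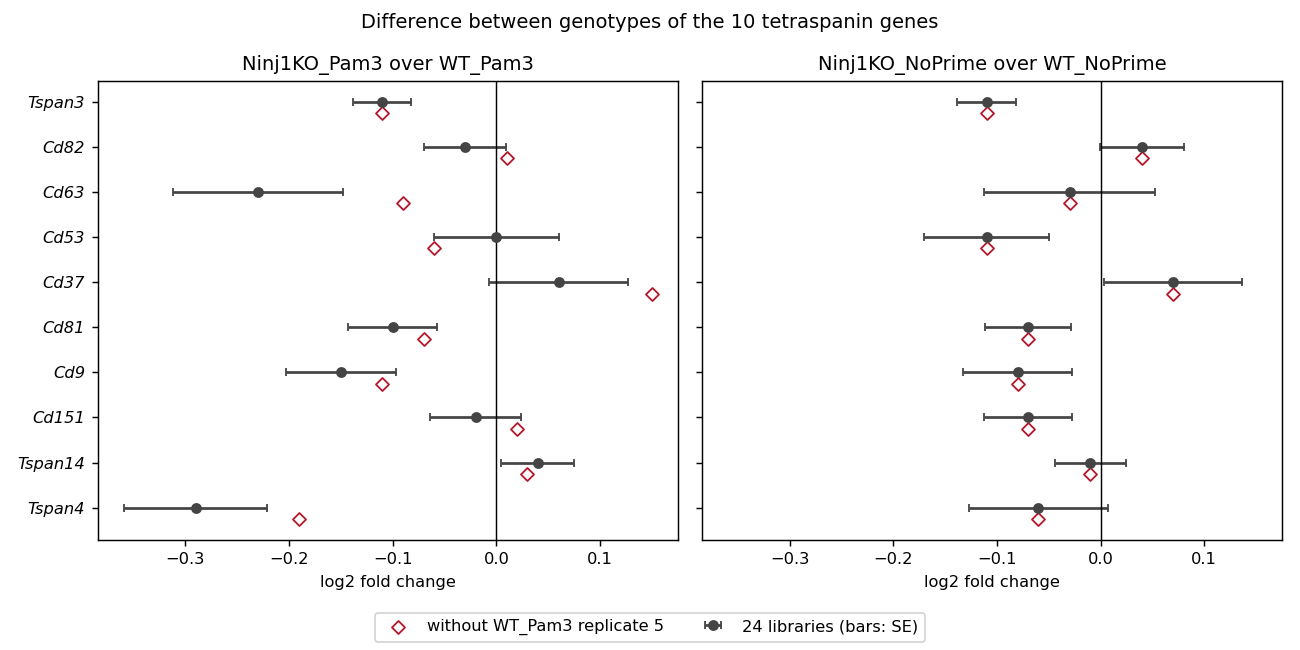
Log2 fold change of knockout over WT for the 10 genes after Pam3 (left) and in media (right); filled circles with bars are the fit of 24 libraries with its SE, and open diamonds are the fit without WT_Pam3 replicate 5. Tspan3 sits at -0.11 in both panels, and the diamonds of Tspan4, Cd63 and Cd37 are shifted to the right after Pam3.

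The response to Pam3 was also compared between genotypes, as the log2 fold change in Ninj1 KO cells minus that in WT cells. None of the 10 genes was called by edgeR, DESeq2 or limma. Of all genes tested, edgeR called 0.762% (0.173% higher and 0.589% lower), DESeq2 1.42% of 27541 and limma 0.887%. Of the 10, 1 had an unadjusted p under 0.05 in edgeR, a count with no all-gene share beside it. The differences ran from -0.23 (SE 0.0961) for Tspan4 and -0.20 (SE 0.116) for Cd63 to 0.11 (SE 0.085) for Cd53. Without WT_Pam3 replicate 5 they were -0.13 for Tspan4, -0.06 for Cd63 and 0.04 for Cd53. The difference for Tspan3 was 0.00 (SE 0.0396).

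Of 23 further mouse tetraspanins, 21 were matched and 12 had enough counts to be tested. Tspan9, abundant in platelets, and Tspan33, a TspanC8 member known from B cells, rose with Pam3. In Ninj1 KO cells 2 of the 12 rose and 10 fell, where 40.2% of all genes tested rose and 44.8% fell, and the median log2 fold change was -0.65 beside -0.07 over all genes. In WT cells 2 rose, 6 fell and 4 were not called, where 40.6% of all genes rose and 44.2% fell, and the median was -0.50 beside -0.05. With library sizes not adjusted by TMM, 2 rose and 10 fell in both genotypes. Under that scaling 3685 of all 14435 genes tested rose and 8935 fell in Ninj1 KO cells, and 3584 rose and 9055 fell in WT cells. Tspan9 had 5.94, 6.55 and 7.39 CPM in Ninj1KO_Pam3, against 0.477, 0.608 and 0.714 in Ninj1KO_NoPrime (log2 3.44, SE 0.113, edgeR adjusted p = 1.1e-20). It had 6.11, 7.06 and 8.42 CPM in WT_Pam3, against 0.347, 0.566 and 0.72 in WT_NoPrime (log2 3.66, SE 0.113, edgeR adjusted p = 3.1e-21). Each Pam3 library was above each media library, as it was for Tspan33. Tspan33 had 3.26, 4.24 and 4.47 CPM in Ninj1KO_Pam3, against 1.19, 1.51 and 1.89 in Ninj1KO_NoPrime (log2 1.44, edgeR adjusted p = 2.28e-11). It had 4.23, 4.54 and 6.01 CPM in WT_Pam3, against 0.991, 1.17 and 1.77 in WT_NoPrime (log2 1.94, edgeR adjusted p = 4.49e-14).

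**Figure D4:**
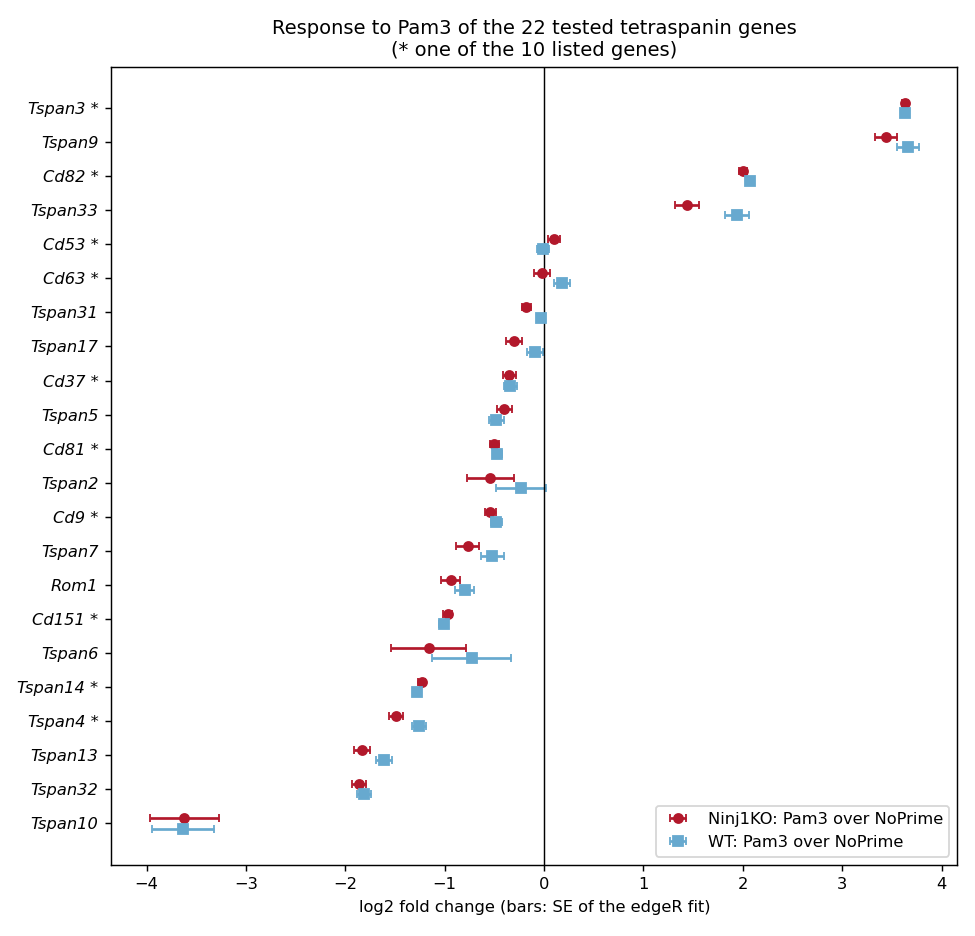
Log2 fold change of Pam3 over media in Ninj1 KO cells (circles) and WT cells (squares) for the 22 tested tetraspanins, with SE as bars and the 10 listed genes starred, ordered by the value in Ninj1 KO cells. Tspan3, Tspan9, Cd82 and Tspan33 lie far to the right, and the genes below Tspan31 lie to the left of 0.

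Among the genes that fell, Tspan32, a leukocyte tetraspanin whose gene lies 33.1 kb from Cd81, had 4.05, 4.59 and 5.06 CPM in Ninj1KO_Pam3, against 15.7, 16.5 and 17.8 in Ninj1KO_NoPrime. In WT cells it had 3.97, 4.75 and 5.82 CPM after Pam3, against 16.1, 17.3 and 17.6 in media. That is a log2 fold change of -1.86 in Ninj1 KO cells and -1.81 in WT cells (edgeR adjusted p = 4.56e-19 and 8.38e-19). Tspan13 fell by 1.83 in Ninj1 KO cells and by 1.61 in WT cells on the log2 scale, and Rom1, a gene known from photoreceptors, fell by 0.94 in Ninj1 KO cells and by 0.80 in WT cells. Tspan7 fell by 0.77 in Ninj1 KO cells and by 0.52 in WT cells, and Tspan5 by 0.40 in Ninj1 KO cells and by 0.48 in WT cells. Tspan10 had a median of 0.0467 CPM in Ninj1KO_Pam3 and 0.0663 in WT_Pam3, less than 3 counts are worth in a library, against 0.614 in Ninj1KO_NoPrime and 0.903 in WT_NoPrime. Its fitted log2 fold changes of -3.62 in Ninj1 KO cells and -3.63 in WT cells rest on few counts.

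Tspan6, Tspan2, Tspan17 and Tspan31 fell in Ninj1 KO cells and were not called in WT cells. Tspan6 gave -1.16 in Ninj1 KO cells and -0.73 in WT cells on the log2 scale, and the WT value was -0.29 without WT_NoPrime replicate 2 and -0.87, then called, without WT_NoPrime replicate 3. Tspan2 gave -0.54 in Ninj1 KO cells and -0.23 in WT cells. Tspan17 gave -0.30 in Ninj1 KO cells and -0.09 in WT cells, and Tspan31 gave -0.18 in Ninj1 KO cells and -0.03 in WT cells. None of the 12 differed in its response between genotypes by edgeR, DESeq2 or limma, and 2 had an unadjusted p under 0.05 in edgeR. Without WT_Pam3 replicate 5, Tspan17 (-0.20) and Tspan31 (-0.08) were called lower in WT cells as well. Tspan31 overlaps Cdk4 on the other strand, so its reads are uncertain. The Tspan2 call was lost with DESeq2 (-0.52), with limma and in 6 of the 24 fits without 1 library.

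Tspan17 was the 1 further tetraspanin called between genotypes after Pam3, at 23.5 ± 1.86 CPM in Ninj1KO_Pam3 and 29.4 ± 5.82 in WT_Pam3 (SD, n = 6; log2 -0.32, SE 0.0828, edgeR adjusted p = 0.0227). WT_Pam3 replicate 5 stood at 40.9 CPM and the other 5 at 25.7 to 29.8, which overlap the knockout range of 21.1 to 26.4. Without that library the log2 fold change was -0.21 (edgeR adjusted p = 0.0086), and over the 24 fits without 1 library the call held in 22. The gene lies 5.59 Mb from Ninj1 on chromosome 13. In media none of the 12 was called by edgeR or DESeq2, and 1 was by limma, which called 3.03% of all genes tested. Of the 12, 1 had an unadjusted p under 0.05 in edgeR, a count with no all-gene share beside it.

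A further 9 tetraspanins were matched but had too few counts, among them Tspan1 with 0 counts in all 24 libraries, Tspan8 with 23 counts and Prph2 with 3. Tspan18 lies 84.6 kb from Cd82 and had 139 counts over the 24 libraries, against 118982 for Cd82. Tspan11 lies 7.42 kb from Tspan9 and had 100 counts, against 2792 for Tspan9.

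In the TspanC8 group, 5 of 6 genes were tested. With Pam3, Tspan33 rose and Tspan5, Tspan10, Tspan14 and Tspan17 fell in Ninj1 KO cells, a median log2 fold change of -0.40. In WT cells Tspan33 rose, Tspan5, Tspan10 and Tspan14 fell and Tspan17 was not called, with a median of -0.48. Of all genes tested, 85.0% were called in Ninj1 KO cells and 84.8% in WT cells. Adam10 itself, added after its values were seen, had 146 ± 8.08 CPM in Ninj1KO_Pam3 and 143 ± 28.1 in WT_Pam3, against 201 ± 8.57 in Ninj1KO_NoPrime and 201 ± 12.1 in WT_NoPrime (SD, n = 6). It fell by 0.46 in Ninj1 KO cells and by 0.49 in WT cells on the log2 scale (edgeR adjusted p = 4.37e-05 and 2.01e-05), and by 0.38 in WT cells without WT_Pam3 replicate 5.

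ADAM10 sheds the extracellular part of many membrane proteins. Of 10 tested genes in a list of Adam10 and its substrates, 6 rose and 4 fell with Pam3 in Ninj1 KO cells (median log2 fold change 1.03), where 40.2% of all genes rose and 44.8% fell. In WT cells 6 rose and 3 fell (median 0.97), where 40.6% of all genes rose and 44.2% fell. Cx3cl1 and Cxcl16 encode membrane-bound chemokines. Cx3cl1 rose by 4.58 in Ninj1 KO cells and 5.11 in WT cells on the log2 scale, and Cxcl16 by 2.10 in Ninj1 KO cells and 2.51 in WT cells. Mertk, a receptor for apoptotic cells, fell by 2.86 in Ninj1 KO cells and by 2.38 in WT cells. The responses of Mertk (-0.48, edgeR adjusted p = 0.0108) and Cxcl16 (-0.41, edgeR adjusted p = 0.0115) differed between genotypes, and each call held in 24 of 24 fits without 1 library. In media Cxcl16 was higher in Ninj1KO_NoPrime than in WT_NoPrime, by 0.24 (edgeR adjusted p = 0.0151). After Pam3, Mertk was lower in the knockout, at 21.9 ± 1.82 CPM in Ninj1KO_Pam3 and 34 ± 4.1 in WT_Pam3 (log2 -0.63, edgeR adjusted p = 7.11e-07).

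Of 10 tested partners of CD9 and CD81, 8 rose and 2 fell with Pam3 in Ninj1 KO cells (median log2 fold change 0.90), and 7 rose and 2 fell in WT cells (median 1.1), with the all-gene shares given for the ADAM10 list. Icam1, which leukocytes bind through integrins, rose by 4.78 in Ninj1 KO cells and by 5.03 in WT cells, and Vcam1 by 1.46 in Ninj1 KO cells and 1.21 in WT cells, on the log2 scale. Vcam1 was lower in the knockout in both treatments, at -0.43 after Pam3 (edgeR adjusted p = 0.000237) and -0.67 in media (edgeR adjusted p = 2.13e-06). Igsf8, the EWI-2 partner that binds both tetraspanins directly, was lower in Ninj1KO_Pam3 than in WT_Pam3 by -0.33 (edgeR adjusted p = 0.00199), and by -0.26 without WT_Pam3 replicate 5. In media Cd36 was lower in Ninj1KO_NoPrime than in WT_NoPrime, at -0.34 (edgeR adjusted p = 0.00143), and Ifitm3, an interferon-induced membrane protein, was higher, at 0.37 (edgeR adjusted p = 0.0195). The Ifitm3 call was lost without Ninj1KO_NoPrime replicate 1 and without WT_NoPrime replicates 3 or 5.

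Of 12 integrin genes, 7 rose and 4 fell with Pam3 in each genotype, where 85.0% of all genes were called in Ninj1 KO cells and 84.8% in WT cells. The median log2 fold change was 0.63 in Ninj1 KO cells and 0.54 in WT cells. Itga6, which encodes a laminin-binding chain and CD151 partner, fell by 3.91 in Ninj1 KO cells and by 3.76 in WT cells on the log2 scale. Itga5, the fibronectin receptor chain, rose by 3.75 in Ninj1 KO cells and 3.66 in WT cells. Itgal, the LFA-1 chain, rose by 5.17 in Ninj1 KO cells and 5.25 in WT cells, and the shared chain Itgb1 by 1.38 in Ninj1 KO cells and 1.40 in WT cells. Between genotypes Itgam and Itga5 were slightly higher in Ninj1KO_Pam3 than in WT_Pam3, by 0.17 and 0.16 (edgeR adjusted p = 0.0114 and 0.0149), and the Itga5 call was lost without Ninj1KO_Pam3 replicate 4. In media Itgal was higher in Ninj1KO_NoPrime than in WT_NoPrime, by 0.36 (edgeR adjusted p = 0.028), a call that held in 17 of 24 fits without 1 library.

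Of 15 genes that act with CD63 in sorting and vesicles, 8 rose and 5 fell with Pam3 in Ninj1 KO cells (median log2 fold change 0.15), and 7 rose and 5 fell in WT cells (median 0.14). The shares of all genes called, 85.0% in Ninj1 KO cells and 84.8% in WT cells, were close to the share called in this list. Sdc4, the syndecan that binds syntenin, rose by 3.23 in Ninj1 KO cells and by 3.36 in WT cells on the log2 scale, and Timp1, a secreted ligand of CD63, by 2.77 in Ninj1 KO cells and 3.21 in WT cells. Rab27a, a regulator of vesicle release, fell by 2.61 in Ninj1 KO cells and by 2.43 in WT cells. With library sizes not adjusted by TMM, 6 genes rose and 7 fell in Ninj1 KO cells, and 5 rose and 8 fell in WT cells, so the balance of this list depends on the scaling. Of all 14435 genes tested, 3685 then rose and 8935 fell in Ninj1 KO cells, and 3584 rose and 9055 fell in WT cells. In the lists of ADAM10 substrates, CD9 and CD81 partners, integrins and leukocyte receptors, more genes rose than fell under that scaling too. After Pam3, Lamp1 (-0.14, edgeR adjusted p = 0.0045) and Lgals3 (-0.29, edgeR adjusted p = 0.0249) were lower in Ninj1KO_Pam3 than in WT_Pam3. Lgals3 was at -0.18 without WT_Pam3 replicate 5, and its call was lost without any single one of replicates 1 to 5 of Ninj1KO_Pam3.

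Of 12 tested leukocyte receptors that associate with CD37, CD53, CD81 or CD82, 9 rose and 3 fell with Pam3 in each genotype, where 40.2% of all genes rose in Ninj1 KO cells and 40.6% in WT cells. The median log2 fold change was 0.87 in Ninj1 KO cells and 1.17 in WT cells. Clec7a, which encodes Dectin-1, fell by 1.87 in Ninj1 KO cells and by 1.81 in WT cells on the log2 scale. Tlr2, the Pam3 receptor, rose by 3.28 in Ninj1 KO cells and 3.52 in WT cells. In media Tlr2 was higher in Ninj1KO_NoPrime than in WT_NoPrime by 0.21 (edgeR adjusted p = 0.00321), and its response was smaller in the knockout by -0.24 (edgeR adjusted p = 0.0396), a call that held in 5 of 24 fits without 1 library. It was the 1 leukocyte receptor called for a difference in response, and without WT_Pam3 replicate 5 there were 6, where 3.73% of all genes were then called. After Pam3, Cd4 (-0.40, edgeR adjusted p = 0.000531) and Clec7a (-0.21, edgeR adjusted p = 0.0135) were lower in Ninj1KO_Pam3 than in WT_Pam3.

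For each of the 10 genes, the most similar pattern among other tested genes was found as the smallest root mean square difference between the 4 group means of log2 CPM, each gene centred on its own mean, over 24 libraries. Ntng2, which encodes the adhesion protein netrin-G2, was nearest to Tspan3, at 0.022. Centred on its mean, Ntng2 was at 1.79 in Ninj1KO_Pam3, 1.84 in WT_Pam3, -1.88 in Ninj1KO_NoPrime and -1.75 in WT_NoPrime, beside 1.76, 1.87, -1.87 and -1.76 for Tspan3. The Tspan3 distance was the largest of the 10. Lipa, which encodes lysosomal acid lipase, was nearest to Tspan4 at 0.0064, and the pseudogene Cd9-ps to Cd9 at 0.0026. The others were Ldb1 for Tspan14, Cox6a2 for Cd63, Rhbdd3 for Cd81, Rbbp8 for Cd82, Atp8b4 for Cd37, Zfp91 for Cd53 and Rufy2 for Cd151, at 0.0019 to 0.011. The WT_Pam3 means include replicate 5, which lay far from its group for Cd63, Cd53, Cd37 and Tspan4. The nearest genes of these rest in part on that library. Each distance is the smallest over many genes, so a low value says little. All 10 distances lay below 0.0281, the smallest SE of a log2 fold change among the 10 genes. Which gene came nearest is therefore uncertain.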

How the data were processed

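Polyadenylated RNA was sequenced as unstranded single-end reads from 24 macrophage libraries, per the labels' protocols. Counts per gene are deposited as whole numbers of uniquely aligned reads with no normalization, per the file headers, and the second deposited column is RPKM adjusted by a size factor. The submitters' processing notes name GSNAP and GRCm38, without settings. Reads that align to several places are not in the counts, which can lower genes with close copies. GENCODE M21 gave symbols to 52403 of the 52636 gene models, and the other 233 held 0.0196% of the reads.

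Counts were analysed with edgeR 4.0.16 in R 4.3.3 (quasi-likelihood F-test, TMM, filterByExpr, 14435 genes, 4 groups in 1 fit, no covariate, biological coefficient of variation 8.21%). SE is the size of the log2 fold change over the square root of F. DESeq2 1.42.0, limma 3.58.1 on log2(nRPKM + 1), other scalings, no filter, fits of the compared groups alone, a stricter threshold and leaving out each library were alternatives. On simulated counts for Ninj1KO_NoPrime over WT_NoPrime with 14311 genes, 95% of genes changed 1.5-fold were recovered, and 7.14% of the calls were on unchanged genes. Recovery at the sizes called between genotypes among tetraspanins was not tested: Tspan3 at 1.08-fold, Tspan4 at 1.22-fold and Tspan17 at 1.25-fold. Nothing is read from these shares for those calls. Where all 6 libraries of a group had few counts, 3 counts served as the limit, which covers counting error only.

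The 10 genes and all gene lists were chosen with earlier results of these data known. Named genes were the 10, Ninj1, all other tested tetraspanins, up to 4 genes per partner list and comparison with the smallest adjusted p, and the nearest pattern gene (mean of at least 20 counts per library). Marker lists are described by summed CPM. The libraries carry no replicate numbers in the labels and were numbered in accession order. P-values measure the spread between these libraries, which may be technical. A gene that the rule names is not reported here.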

Additional observations from a re-analysis of the deposited data

Results flagged for a closer look

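In 88 groups of 6 libraries (22 tested tetraspanins in 4 groups), 11 groups had a highest or lowest library separated from the rest by a gap above Dixon's 95% critical value, which is 12.5% of groups, where chance flags about 1 in 20. Of the 11, 7 were WT_Pam3 replicate 5. That library had 520 CPM of Cd63 (322 to 331 in the other 5), 545 CPM of Cd53 (736 to 766), 204 CPM of Cd37 (139 to 154), 80.6 CPM of Tspan4 (52.7 to 59.2), 40.9 CPM of Tspan17 (25.7 to 29.8), 101 CPM of Tspan31 (80.4 to 87.2) and 3.73 CPM of Rom1 (2.68 to 3.02). Ninj1KO_Pam3 replicate 1 had 34.1 CPM of Cd81 (37.1 to 38.7 in the other 5), and Ninj1KO_Pam3 replicate 5 had 2.54 CPM of Tspan13 (3.44 to 3.77). In WT_NoPrime, replicate 5 had 13.3 CPM of Tspan13 (11.4 to 12) and replicate 2 had 0.48 CPM of Tspan6 (0.0991 to 0.24).

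The response to Pam3 differed between genotypes by edgeR's interaction test for 4 partner genes, as the log2 fold change in Ninj1 KO cells minus that in WT cells: Mertk at -0.48, Cxcl16 at -0.41, Icam1 at -0.25 and Tlr2 at -0.24. The Mertk and Cxcl16 calls held in 24 of 24 fits without 1 library, the Icam1 call in 3 and the Tlr2 call in 5. Without WT_Pam3 replicate 5, 2 genes of the ADAM10 list, 1 partner of CD9 and CD81 and 6 leukocyte receptors were called, against 2, 1 and 1 with it. With all 24 libraries, 10, 10 and 12 genes of these lists were tested. Of all genes tested, 3.73% were called without that library and 0.762% with it. Leaving out that library gave -0.55 for Mertk and -0.33 for Cxcl16.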

How the results depend on the processing

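Over the alternatives, 1444 single values of the 10 genes kept their call, 38 lost it, 6 gained one and 2 reversed. A change of sign was counted as reversed only where 1 of the 2 fits called the gene. Uncalled values near 0 that changed sign, such as Cd82 between genotypes after Pam3 (-0.03, and 0.01 without WT_Pam3 replicate 5), are among those kept. For the 12 further tetraspanins, 1749 kept theirs, 16 lost their call and 8 gained one. The 2 reversals came with library size only: Cd53 in Ninj1 KO cells with Pam3 was -0.38, against 0.10, and Cd63 in WT cells with Pam3 was -0.34, against 0.18. The cause was not tested. After Pam3, the 2 genotype calls among the 10 genes became 0 at an adjusted p under 0.01 and in the fit of those groups alone, 1 with library size only and with no filter on low counts, and 1 to 3 without 1 library. The 1 further tetraspanin called there became 0 under those same 4 alternatives, and 0 to 1 without 1 library. In media, the 1 call among the 10 genes became 0 at an adjusted p under 0.01 and with no filter, and 0 to 1 without 1 library. Among further tetraspanins limma called 1, Tspan10 at -0.15, against 0. Over all genes, genotype calls after Pam3 numbered 586 of 14435 (4.06%) and ran to 8.09% without WT_Pam3 replicate 5, and 4.06% became 1.36% in the fit of those groups alone. In media 3.03% became 8.75% without that library and 7.97% in the fit of the media groups alone. Interaction calls were 0.762%, against 3.73% without that library and, by DESeq2 over 27541 genes, 1.42%. With no filter, over 27541 genes, calls were 1.33% after Pam3, 1.38% in media and 0.229% for the interaction. The share of higher calls after Pam3 moved with the scaling: 412 higher and 220 lower with library size only, against 189 and 397. With Pam3, library size only gave 3685 higher and 8935 lower in Ninj1 KO cells, against 5803 and 6470, and 3584 and 9055 in WT cells, against 5859 and 6376. No paired analysis was possible because the labels give no replicate numbers. Tspan2, Tspan6 and Tspan10, at no more than 1.13 CPM in any library, are limited by depth.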
